A study of Mus musculus with 4 samples.

Results

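Chemokines are small secreted proteins that direct the movement of leukocytes, and chemokine receptors are the G protein-coupled receptors that sense them. The 55 genes described here were taken by symbol from 19937 mouse genes measured on 4 Affymetrix whole-transcript arrays: all genes named Ccl, Cxcl, Ccr or Cxcr with a number, together with Cx3cl1, Xcl1, Xcr1 and the atypical receptor genes Ackr1 to Ackr4. The fractalkine receptor gene Cx3cr1 was left out of the set and is given as a marker of microglia. There were 34 ligand genes and 21 receptor genes.

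The arrays read sorted cells of gliomas that a PDGF-B/EGFP retrovirus, injected into C57/Bl6 embryos at embryonic day 14, had induced. The early-onset group, labelled low-grade, held 2 pools (pool 1 and pool 2) of cells from 2 tumours each, and the late-onset group, labelled high-grade, held 2 single tumours (tumour 1 and tumour 2). All 4 samples carried the PDGF-B and EGFP transgene and had been sorted for EGFP. The age of the mice, and the promoter that drives the transgene, are not given in the sources used here. The comparison asks which chemokine signals differ between the stages of tumour progression. With 2 samples in each group, precision is limited by the number of arrays.

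In brain, microglia and infiltrating macrophages are major producers of inflammatory chemokines such as Ccl3, Ccl4 and Ccl2, and these ligands draw further myeloid cells and lymphocytes. Neurons and glia make other members, among them Cx3cl1, Cxcl12 and Cxcl14. Atypical receptors bind chemokines and remove them without the usual G protein signal.

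In late-onset cells 10 of the 34 ligand genes fell, among them Ccl3, Cxcl2 and Cxcl10, each more than 16-fold, and 1 of the 21 receptor genes, Ackr3, fell. A gene was called when limma's Benjamini-Hochberg adjusted p over all 19937 genes was at most 0.05. Of the 55 members, 11 fell and 0 rose; 20.0% of members were thus called lower, against 8.12% of all genes, and 0 were called higher, against 6.59% of all genes. Of the 11, 9 fell at least 2-fold (3.53% of all genes did) and 5 at least 8-fold (0.401% of all genes). The median log2 fold change was -0.09 over the 55 members and -0.01 over all genes, so most members lay near 0. At an unadjusted p under 0.05, 1 member, Ccl25, stood higher. In 23 members both tumours lay below both pools, and in 7 above, against 30.4% and 28.5% of all genes. Without pool 1 fewer members were called lower, and fewer of all genes too. Of the members, 23 had a mean log2 value under the lower quartile of all genes, where RMA compresses differences, and none of these 23 was called. After each array's median was subtracted, the median log2 fold change of all genes was 0.15, 70.1% of all called genes were higher rather than 44.8%, and the same 11 members were called lower.

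The early-onset pools also had higher values of myeloid marker genes. Of 15 measured microglia and macrophage markers, 14 were called lower in late-onset cells, with log2 fold changes from -4.23 for Itgam to -1.13 for Tmem119, which was not called (adjusted p 0.0688). Their mean log2 level was 10.50 in pool 1, 10.26 in pool 2, 6.68 in tumour 1 and 7.26 in tumour 2. The colony-stimulating factor receptor gene Csf1r stood at -4.11 and Aif1 at -3.22. Each sorted sample was read as a whole, so fewer cells of a type and less RNA per cell cannot be told apart. Whether the purity of the EGFP sort differed between samples was not tested. Markers of the glial progenitor type were bright on every array, with a mean log2 level between 12.14 and 12.43. Of these 5, 1 fell, the PDGF receptor gene Pdgfra (-0.45, adjusted p 0.0410), and Olig2 (-0.19, adjusted p 0.256) and Sox10 (0.00, adjusted p 0.997) were not called. T and NK cell markers (0 of 7 called) and neutrophil markers (1 of 7, Csf3r, called lower) had mean log2 levels of at most 5.29 on any array, with Cd3e at -0.19 (adjusted p 0.257) and S100a8 at -0.02 (adjusted p 0.948). Of the other lists, 0 of 3 B cell, 1 of 4 dendritic cell, 1 of 4 pericyte and 2 of 5 astrocyte markers were called, all lower. In all 5 astrocyte markers both tumours lay below both pools, against 30.4% of all genes. Their log2 fold changes ran from -2.11 for Gja1, not called, to -0.89 for Slc1a3, called, with a median of -1.66. Their mean log2 level was 9.52 in pool 1, 9.99 in pool 2, 7.70 in tumour 1 and 8.67 in tumour 2. Across all 34760 probe sets, with or without a gene symbol, the pools correlated at 0.992, the tumours at 0.988, and pools with tumours at 0.972 to 0.974.

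**Figure D1:**
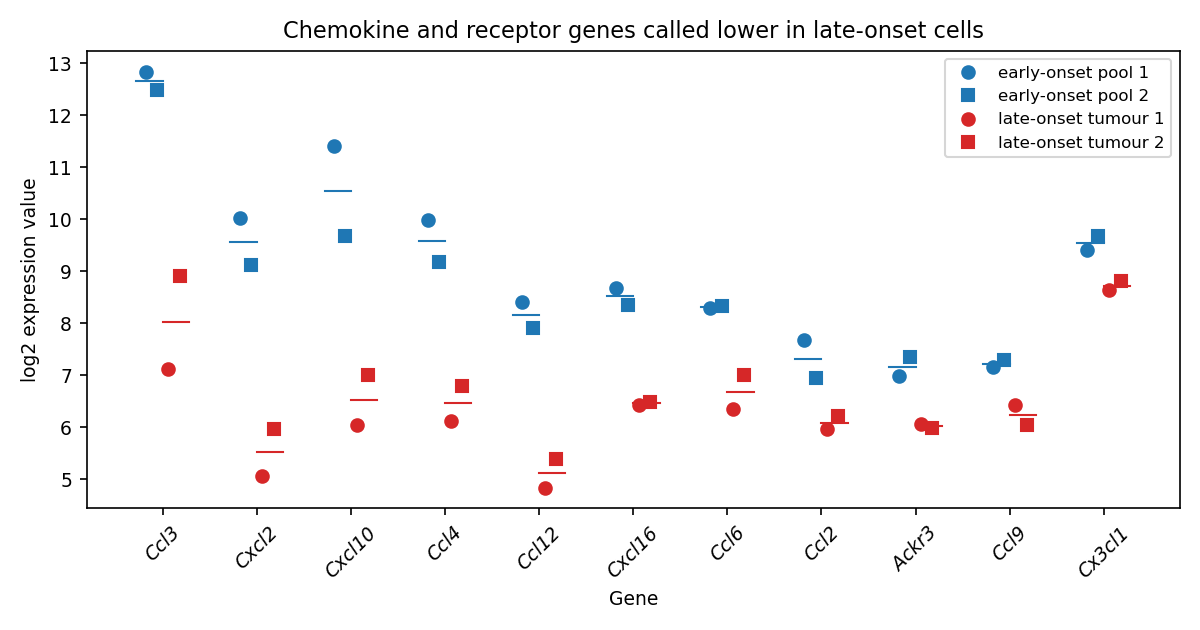
Log2 expression values (vertical axis) of the 11 chemokine and receptor genes called lower (horizontal axis), on each of the 4 arrays; blue marks the early-onset pools, red the late-onset tumours, circles sample 1, squares sample 2, and lines the group means. In each of the 11 genes both pools lie above both tumours, by the widest margin of means in Ccl3, from 12.66 to 8.02.

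Inflammatory CC ligands made up most of the called genes: 6 of 10 fell and 0 rose. Ccl3, which encodes macrophage inflammatory protein 1 alpha, had log2 values of 12.84 and 12.48 in the pools and 7.13 and 8.91 in the tumours. Both tumours lay far below both pools, and tumour 2 stood 1.78 above tumour 1. Ccl3 fell by 4.64 on the log2 scale (SE 0.57, adjusted p 0.00914), a 24.98-fold lower level. The change was -3.75 without tumour 1 and -5.53 without tumour 2, and the call was lost without pool 1 (adjusted p 0.0546) or pool 2 (0.0502). Its close relative Ccl4, which encodes macrophage inflammatory protein 1 beta, read 9.98 and 9.18 in the pools and 6.13 and 6.79 in the tumours. It fell by 3.12 (SE 0.33, adjusted p 0.00681), and its groups were more than 2 log2 units apart at the nearest arrays.

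Of the monocyte attractants that act through Ccr2, Ccl12 and Ccl2 fell and Ccl7 was not called. Ccl12, a mouse ligand of Ccr2, had values of 8.40 and 7.91 in the pools and 4.84 and 5.40 in the tumours, with no overlap. It fell by 3.03 (SE 0.25, adjusted p 0.00378), 8.19-fold as measured; both tumour values lay under the lower quartile of all genes (5.52), where RMA compresses differences. Ccl2, the main monocyte chemoattractant, read 7.69 and 6.96 in the pools and 5.96 and 6.22 in the tumours. The groups did not overlap, but the pools differed from each other by 0.73, as much as pool 2 did from tumour 2. Ccl2 fell by 1.23 (SE 0.26, adjusted p 0.0363), and the call was lost without pool 1 (log2 fold change -0.86, adjusted p 0.0786), without tumour 1 (0.0937), without tumour 2 (0.0651) and after quantile normalization (0.0575). Ccl7, a further Ccr2 ligand, had 7.04 and 6.82 against 6.44 and 6.67 and was not called (-0.37, 95% interval -0.71 to -0.03, adjusted p 0.137).

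Ccl6 and Ccl9 are mouse ligands of Ccr1 made by myeloid cells. Ccl6 had values of 8.29 and 8.33 in the pools and 6.36 and 7.01 in the tumours and fell by 1.62 (SE 0.22, adjusted p 0.0121). Ccl9 had 7.16 and 7.29 against 6.44 and 6.05 and fell by 0.99 (SE 0.16, adjusted p 0.0179). The pools agreed closely in both genes, and the tumours parted in opposite ways, tumour 2 being the higher in Ccl6 and the lower in Ccl9. Both calls were lost without either pool, with adjusted p from 0.0645 to 0.111.

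Ccl5, which attracts T cells and macrophages, had the largest difference that missed the threshold. It read 9.64 in pool 1 and 7.997 in pool 2, against 6.998 and 7.16 in the tumours. Pool 1 alone stood far apart, 1.64 above pool 2. The log2 fold change was -1.74 (95% interval -3.05 to -0.43, adjusted p 0.0876), and it was -0.92 without pool 1 and -2.56 without pool 2, where it was called (0.0121). The remaining ligands of this class, the eosinophil attractant gene Ccl11 and Ccl8, were at -0.03 (-0.44 to 0.38) and 0.20 (-0.05 to 0.45).

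Among the CXC ligands with the ELR motif, which attract neutrophils through Cxcr2, 1 of 5 was called. Cxcl2 had values of 10.02 and 9.12 in the pools and 5.07 and 5.98 in the tumours. Every tumour value lay more than 3 log2 units below every pool value. Cxcl2 fell by 4.05 (SE 0.41, adjusted p 0.00600), a 16.6-fold lower level. Cxcl1, its neighbour and close relative, read 7.70 and 7.34 against 7.03 and 7.17 and was not called (-0.42, 95% interval -0.80 to -0.04, adjusted p 0.133). Cxcl3 (-0.10, -0.34 to 0.15), Cxcl15 (-0.19, -0.44 to 0.05) and Cxcl5 (0.02, -0.26 to 0.30) lay near 0, and these 3 genes had mean log2 values under the lower quartile of all genes.

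The promoters of Cxcl2, Cxcl1 and Cxcl3 are shown because these 3 genes lie in one row on chromosome 5 and carry the same NF-kB match, while only Cxcl2 was called. Each sequence holds the 250 bases before the RefSeq start in build GRCm38.p6, 5′ to 3′ on the plus strand: chr5:90903649-90903898 for Cxcl2, chr5:90890995-90891244 for Cxcl1 and chr5:90785851-90786100 for Cxcl3. Capitals mark matches to the NF-kB consensus, the ISRE core (GAAA, any 2 bases, GAAA), the AP-1 site TGANTCA or the TATA box TATAAA, searched on both strands from 250 bases before to 50 after the start, with overlapping matches run together.
Cxcl2: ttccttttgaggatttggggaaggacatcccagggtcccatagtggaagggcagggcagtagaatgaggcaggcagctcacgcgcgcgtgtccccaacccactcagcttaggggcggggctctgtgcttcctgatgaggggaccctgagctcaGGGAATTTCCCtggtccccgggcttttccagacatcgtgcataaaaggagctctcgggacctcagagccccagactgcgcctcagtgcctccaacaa
Cxcl1: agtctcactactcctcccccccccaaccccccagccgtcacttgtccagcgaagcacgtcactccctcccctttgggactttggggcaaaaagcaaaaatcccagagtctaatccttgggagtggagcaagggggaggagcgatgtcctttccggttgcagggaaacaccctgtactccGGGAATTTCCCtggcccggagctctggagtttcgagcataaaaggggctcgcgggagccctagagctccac
Cxcl3: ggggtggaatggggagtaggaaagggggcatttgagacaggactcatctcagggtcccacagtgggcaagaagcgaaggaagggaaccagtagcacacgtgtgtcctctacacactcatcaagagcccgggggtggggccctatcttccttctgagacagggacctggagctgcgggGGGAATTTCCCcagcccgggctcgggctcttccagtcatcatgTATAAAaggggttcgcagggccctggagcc
The letters GGGAATTTCC stand 97 bases before the start in Cxcl2, 71 in Cxcl1 and 73 in Cxcl3. Next to these matches, the log2 fold changes were -4.05, -0.42 and -0.10.

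Of the Cxcr3 ligands, which interferon gamma induces and which attract activated T and NK cells, 1 of 3 was called. Cxcl10 had log2 values of 11.41 and 9.68 in the pools and 6.04 and 7.01 in the tumours. The groups stood apart, and pool 1 exceeded pool 2 by 1.73. Cxcl10 fell by 4.02 (SE 0.62, adjusted p 0.0162), a 16.2-fold lower level, with -3.15 without pool 1 and -4.89 without pool 2. Cxcl9 read 5.61 and 5.57 in the pools and 5.82 and 5.54 in the tumours and was not called (0.10, 95% interval -0.23 to 0.42). Cxcl11 read 4.86 and 4.90 against 4.83 and 5.07 and was not called (0.07, -0.24 to 0.38). Cxcl11 lay under the lower quartile of all genes (5.52) and Cxcl9 just above it, so a change in either would be understated. Cxcl11 is annotated as a transcribed pseudogene in the C57BL/6J reference of RefSeq.

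The promoters of Cxcl10, which fell, and of its neighbour Cxcl9, which was not called, are shown for contrast, likewise 5′ to 3′ in GRCm38.p6 and on the minus strand, at chr5:92348890-92349139 and chr5:92328080-92328329.
Cxcl10: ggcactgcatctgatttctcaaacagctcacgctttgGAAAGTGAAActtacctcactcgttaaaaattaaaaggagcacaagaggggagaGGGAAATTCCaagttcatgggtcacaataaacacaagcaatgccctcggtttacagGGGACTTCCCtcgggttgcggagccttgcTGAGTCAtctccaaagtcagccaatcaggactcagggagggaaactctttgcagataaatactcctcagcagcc
Cxcl9: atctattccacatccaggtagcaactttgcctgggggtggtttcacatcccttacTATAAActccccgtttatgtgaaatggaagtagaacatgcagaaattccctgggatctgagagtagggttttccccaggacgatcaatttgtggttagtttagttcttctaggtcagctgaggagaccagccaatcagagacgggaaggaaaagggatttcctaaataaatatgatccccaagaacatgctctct
Cxcl10 held 1 ISRE match at 213 bases before the start, NF-kB matches at 159 and 103, and an AP-1 match at 74. Cxcl9 held a TATA box match 195 bases before the start and an AP-1 match 31 bases after it, outside the sequence shown. The promoter of Ccl3, the member with the largest fall, held 0 matches to the 4 motifs and is shown from the minus strand, chr11:83649379-83649628.
Ccl3: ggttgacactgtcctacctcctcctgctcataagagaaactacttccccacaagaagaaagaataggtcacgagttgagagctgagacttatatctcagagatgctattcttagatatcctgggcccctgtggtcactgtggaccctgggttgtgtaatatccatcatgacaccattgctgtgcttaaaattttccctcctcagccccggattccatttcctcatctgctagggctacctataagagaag
Promoter entries were found for 41 of the 55 members, 8 of them called. The NF-kB consensus matched 20.9% of the 43 member promoters and 4.51% of all 32851 promoters. It matched 3 of 8 promoters of called members (Ccl9, Cxcl10 and Cxcl2) and 6 of 35 promoters of members not called, a difference that was not tested. The ISRE core matched 6.98% of member promoters and 3.44% of all, the AP-1 site 16.3% and 7.81%, and the TATA box 32.6% and 13.6%. A match is a string of letters, and binding was not measured.

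Of the 5 homeostatic or other CXC ligands 1, Cxcl16, fell, and of the 2 CX3C and C ligands 1, Cx3cl1, fell. Cxcl16, which is made as a membrane protein and is the ligand of Cxcr6, had values of 8.68 and 8.36 in the pools and 6.43 and 6.49 in the tumours. The tumours were nearly equal and lay well below the pools. Cxcl16 fell by 2.06 (SE 0.14, adjusted p 0.00264), the smallest adjusted p among the members, and it was called in every other fit run. Cx3cl1 (fractalkine), made in brain mainly by neurons, had 9.41 and 9.68 against 8.63 and 8.80. Its groups did not overlap, and it fell by 0.82 (SE 0.14, adjusted p 0.0195), with the call lost without pool 1 (0.0526), pool 2 (0.108) or tumour 1 (0.0511). Of 4 neuron markers, Snap25 (-1.85) fell and Tubb3 rose (1.86), and Syt1 (-1.14) and Rbfox3 (-0.81), chosen after their values were seen, fell too, with mean log2 levels of the 4 from 8.21 to 8.23 in the pools and 7.64 to 7.83 in the tumours. The part of neuronal transcripts in the Cx3cl1 value was not tested.

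Cxcl12, the ligand of Cxcr4, and Cxcl14 were not called. Cxcl12 read 5.87 and 5.66 in the pools and 5.52 and 5.72 in the tumours (-0.14, 95% interval -0.47 to 0.18, adjusted p 0.525; 0.02 after median subtraction), and its groups overlapped. Cxcl14, a homeostatic ligand, read 10.19 and 10.35 against 10.13 and 10.64, with both tumours outside the range of the pools on opposite sides (0.12, -0.36 to 0.60, adjusted p 0.743).

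Of the 9 homeostatic or other CC ligands, 0 were called by limma, and 1, Ccl25, had an unadjusted p under 0.05. Ccl19, which guides lymphocytes and dendritic cells through Ccr7, read 9.34 and 9.32 in the pools and 9.06 and 8.19 in the tumours. Tumour 2 alone was far lower. Its log2 fold change was -0.71 (95% interval -1.43 to 0.02, adjusted p 0.176), and it was called without tumour 1 (-1.15, adjusted p 0.0102). The 4 probe sets named Ccl19 disagreed: 1 stood higher (0.78, adjusted p 0.0381 over all probe sets) and the others ran from -0.71 to -0.12. Ccl19 has pseudogene copies, so how the signal divides among them is uncertain. Ccl25, a ligand of Ccr9 in thymus and gut, read 7.26 in both pools and 7.77 and 7.54 in the tumours (0.40, 0.10 to 0.70, adjusted p 0.0873). Both tumours stood above both pools. Its second probe set passed as higher (1.12, adjusted p 0.00926 over all probe sets), and Ccl25 was called higher as the mean of its probe sets (0.76, 0.0136), after quantile normalization (0.0440) and after median subtraction (0.0387). The other 7 genes ran from -0.30 for Ccl20 to 0.10 for Ccl17, and Xcl1, the only C ligand here, stood at -0.07.

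**Figure D2:**
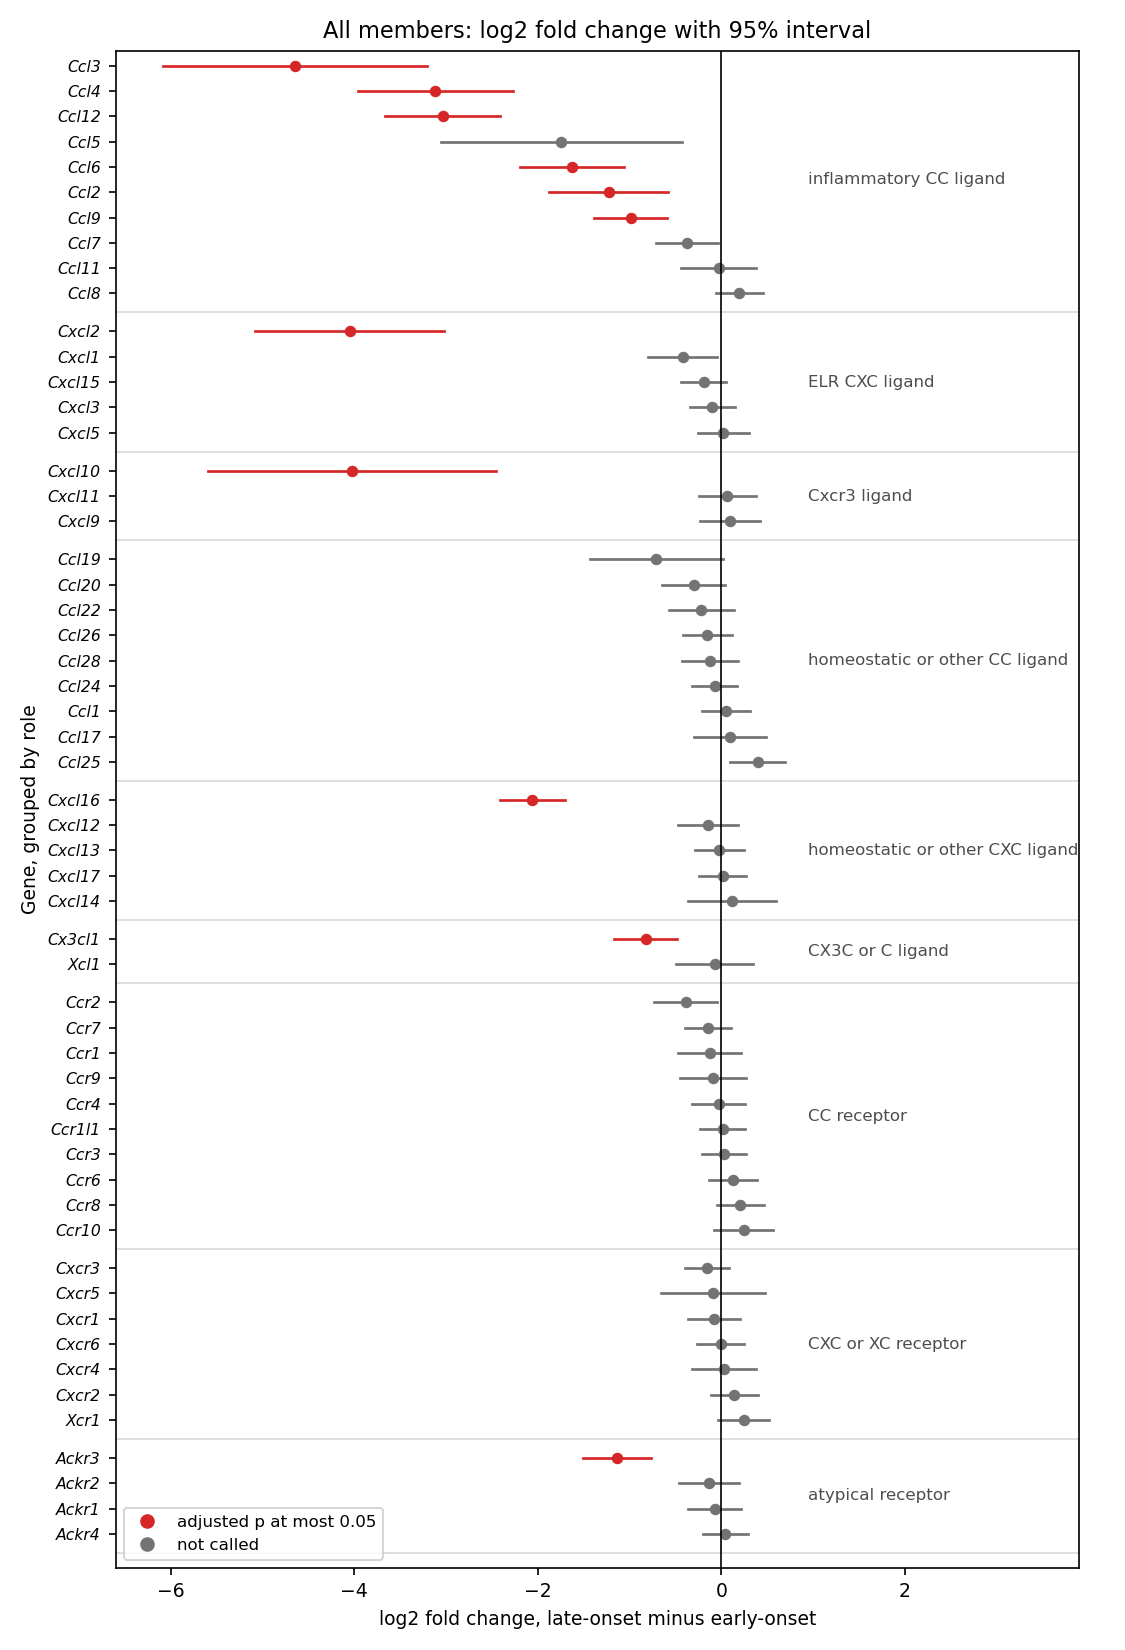
Log2 fold change, late-onset minus early-onset (horizontal axis), of all 55 members by role (vertical axis), with 95% intervals from limma; red marks adjusted p at most 0.05. The 11 red genes all lie left of 0, 10 among ligands and 1 (Ackr3) among receptors.

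Among the receptor genes 1 of 21 fell and 0 rose, and among the ligand genes 10 of 34 fell and 0 rose, against 8.12% lower and 6.59% higher of all genes. The difference between the classes was not tested, and 13 of the 21 receptor genes had mean log2 values under the lower quartile of all genes. Ackr3, an atypical receptor that scavenges Cxcl12, had values of 6.99 and 7.35 in the pools and 6.07 and 5.98 in the tumours. The groups did not overlap and the tumours differed by only 0.09. Ackr3 fell by 1.14 (SE 0.15, adjusted p 0.01035) and was called at the 0.05 threshold in every other fit that tested it. Unlike most called members it was lower in tumour 2 than in tumour 1. The other atypical receptors, Ackr1 (-0.07), Ackr2 (-0.14) and Ackr4 (0.05), were not called.

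Cxcr4, the signalling receptor for Cxcl12 and a receptor of neural progenitors and many glioma cells, had bright and even values, 10.36 and 10.42 in the pools and 10.58 and 10.26 in the tumours. The tumours fell on either side of the pools. The log2 fold change was 0.03 with a 95% interval from -0.32 to 0.38 (adjusted p 0.909; -0.06 after cyclic loess and -0.13 without tumour 1), so a change of 2-fold or more in either direction lies outside the interval. Among the other CXC and XC receptors, values ran from -0.16 for Cxcr3 to 0.24 for Xcr1, and 0 of 7 were called by limma, nor did any have an unadjusted p under 0.05.

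Of the 10 CC receptor genes, 0 were called by limma, and 1, Ccr2, had an unadjusted p under 0.05. Ccr2, the receptor of inflammatory monocytes, read 4.16 and 4.15 in the pools and 3.60 and 3.93 in the tumours (-0.39, 95% interval -0.73 to -0.04, adjusted p 0.130), with both tumours below both pools. Ccr1, a receptor for Ccl3, read 4.05 and 4.26 against 4.15 and 3.91 and overlapped (-0.13, -0.47 to 0.21; 0.03 after median subtraction). The other 8 lay between -0.15 for Ccr7 and 0.24 for Ccr10.

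Ligands and receptors were also set beside each other as known pairs, with no test between them. Of 16 receptors with a listed ligand on the array, 5 had at least 1 ligand called lower, and 1 of the 16, Ackr3, was itself called. Ccr2 stood at -0.39 beside Ccl12 at -3.03, and Ccr1 at -0.13 beside Ccl3 at -4.64. Cxcr2 stood at 0.14 (95% interval -0.11 to 0.40) beside Cxcl2 at -4.05, and Cxcr3 at -0.16 (-0.40 to 0.08; 0.00 after median subtraction) beside Cxcl10 at -4.02. Cxcr6 stood at -0.01 (-0.26 to 0.25; 0.15 after median subtraction) beside Cxcl16 at -2.06. Ackr3, in turn, was called beside Cxcl12, which was not. Of these receptors, Ccr1, Ccr2, Cxcr2 and Cxcr6 had mean log2 values under the lower quartile of all genes, where a change would be understated.

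Many chemokine genes lie in rows on a chromosome, and some rows held called and uncalled members side by side. Differences between neighbours were not tested. Of all genes, 8.12% were called lower and 6.59% higher, and each row holds too few genes to set its count against these shares. By the order of GRCm38.p6, the row Ccl2, Ccl7, Ccl11, Ccl12, Ccl8 and Ccl1 on chromosome 11 had log2 fold changes of -1.23, -0.37, -0.03, -3.03, 0.20 and 0.05, and 2 of its 6 genes were called. A second row on chromosome 11, Ccl5, Ccl9, Ccl6, Ccl3 and Ccl4, had 4 of 5 called and values from -4.64 to -0.99. On chromosome 5, Cxcl2 was the only called gene of the 5 members from Cxcl5 to Cxcl2, and Cxcl10 the only called gene of 3, between Cxcl9 and Cxcl11. Of the uncalled genes in these rows, Ccl8, Ccl1, Cxcl3, Cxcl5, Cxcl15 and Cxcl11 had mean log2 values under the lower quartile of all genes. The 7 members Ccr9, Cxcr6, Xcr1, Ccr1, Ccr1l1, Ccr3 and Ccr2 in a row on chromosome 9 had 0 called genes. All of these had mean log2 values under the lower quartile of all genes, where a change would be understated.

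**Figure D3:**
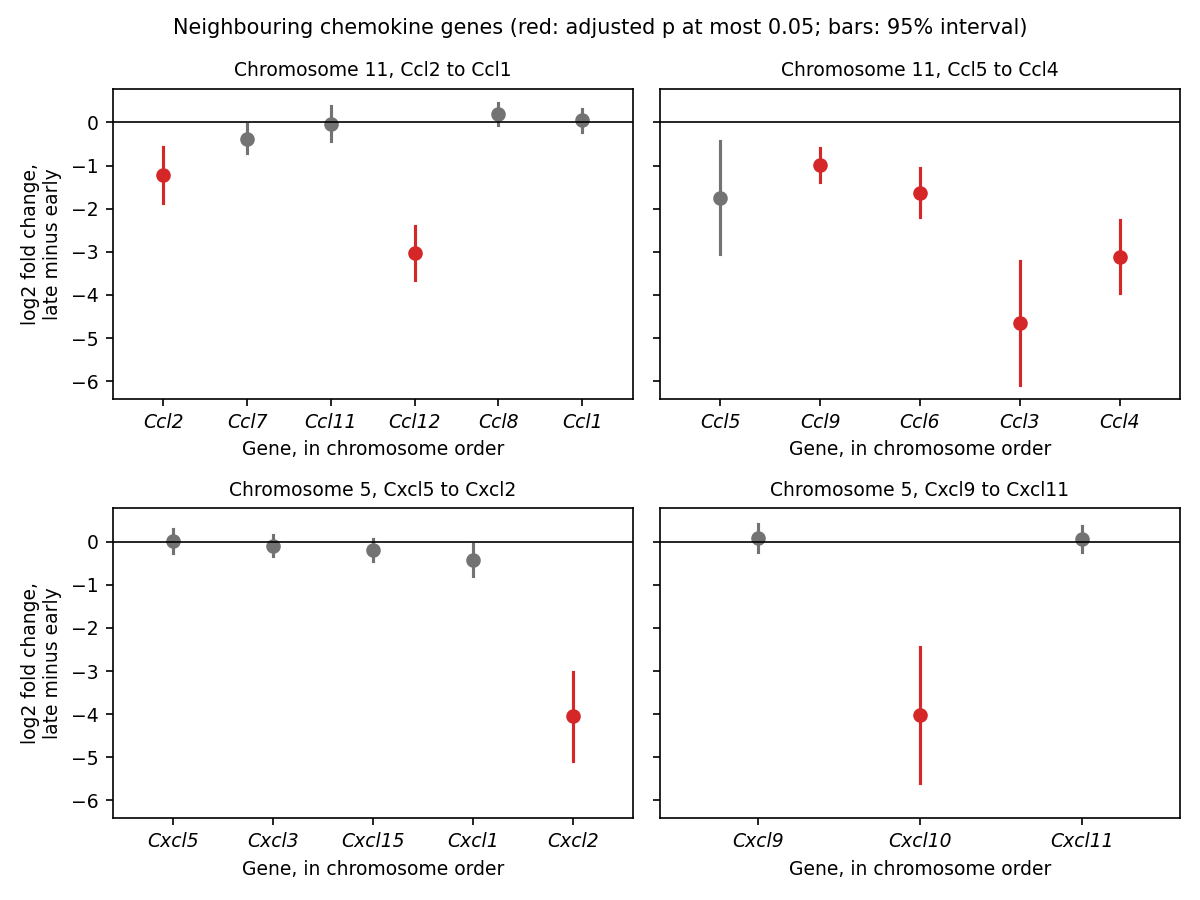
Log2 fold change, late-onset minus early-onset (vertical axis), with 95% intervals, of neighbouring members in chromosome order (horizontal axis, not to scale) in 4 rows on chromosomes 11 and 5; red marks adjusted p at most 0.05. Ccl12, Cxcl2 and Cxcl10 lie at -3.03, -4.05 and -4.02, and their direct neighbours, none of them called, between -0.42 (Cxcl1) and 0.20 (Ccl8). Of these neighbours, Ccl8 and Cxcl11 had mean log2 values under the lower quartile of all genes.

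Samples of one group also differed from each other in the called members and in the myeloid markers. Of the 11, 9 were higher in tumour 2 than in tumour 1, with a median difference of 0.56, and the exceptions were Ackr3 and Ccl9. Of the 15 myeloid markers, 13 were higher in tumour 2, with a median difference of 0.83. Between the pools, 7 of the 11 members and 14 of the 15 markers were higher in pool 1, with medians of 0.35 and 0.22. Over all 19937 genes, 10066 were higher in tumour 2 and 9234 in pool 1. The widest gaps between pools were 1.73 in Cxcl10 and, among uncalled members, 1.64 in Ccl5. Of the 11 log2 fold changes, 8 lay within the range of the markers (-4.23 to -1.13), Ccl3 lay beyond it and Ccl9 and Cx3cl1 short of it. The part of myeloid transcripts in the members' changes was not tested. Endothelial markers, 0 of 7 called, were also higher in tumour 2 in 7 of 7 (median difference 1.07) and higher in pool 1 in 7 of 7 (0.69), with Pecam1 at -0.71 (adjusted p 0.426).

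Genes that act beside or after the receptors were read from 3 lists. Of 17 related genes outside the symbol rule, 8 fell and 1 rose, against 8.12% and 6.59% of all genes. Cx3cr1, the receptor of Cx3cl1, read 11.11 and 10.91 in the pools and 6.89 and 7.15 in the tumours and fell by 3.99 (SE 0.14, adjusted p 0.0013). The atypical chemerin receptor gene Ccrl2 (-3.02), the complement receptor gene C5ar1 (-2.44) and the chemerin receptor gene Cmklr1 (-1.91) fell too. Mif, a cytokine that binds Cxcr2, Cxcr4 and Cd74, rose by 0.99 (SE 0.17, adjusted p 0.0203), from 11.43 and 11.15 in the pools to 12.11 and 12.46 in the tumours. Mif was read from the brightest of its 3 probe sets. Cd74, named after its values were seen, fell (-1.39, adjusted p 0.0343). The platelet chemokine genes Pf4 (-0.09) and Ppbp (0.23), named after their values were seen, were not called.

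Of 18 genes of signalling at the receptor, 3 fell and 0 rose: the RGS genes Rgs1 (-2.88) and Rgs2 (-1.64), which shorten G protein signals, and Arrb2 (-0.58), an arrestin that takes receptors off the membrane. The G protein subunit genes Gnai2 and Gnb1, chosen after their values were seen, stood at -0.20 and -0.01. Of 19 effectors of directed migration, 11 fell and 2 rose, against 8.12% and 6.59% of all genes. The 4 with the largest falls were Vav1 (-3.05), Dock2 (-2.73), Ptk2b (-2.12) and the PI3-kinase gamma gene Pik3cg (-2.06). Several of these, Vav1, Dock2 and Pik3cg among them, are expressed mainly in cells of the haematopoietic (blood-forming) lineage. Vav3 (0.83) and the paxillin gene Pxn (0.59) rose, while the ubiquitous Rac1 (-0.22), Cdc42 (-0.06) and Rhoa (-0.04), named after their values were seen, were not called.

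**Figure D4:**
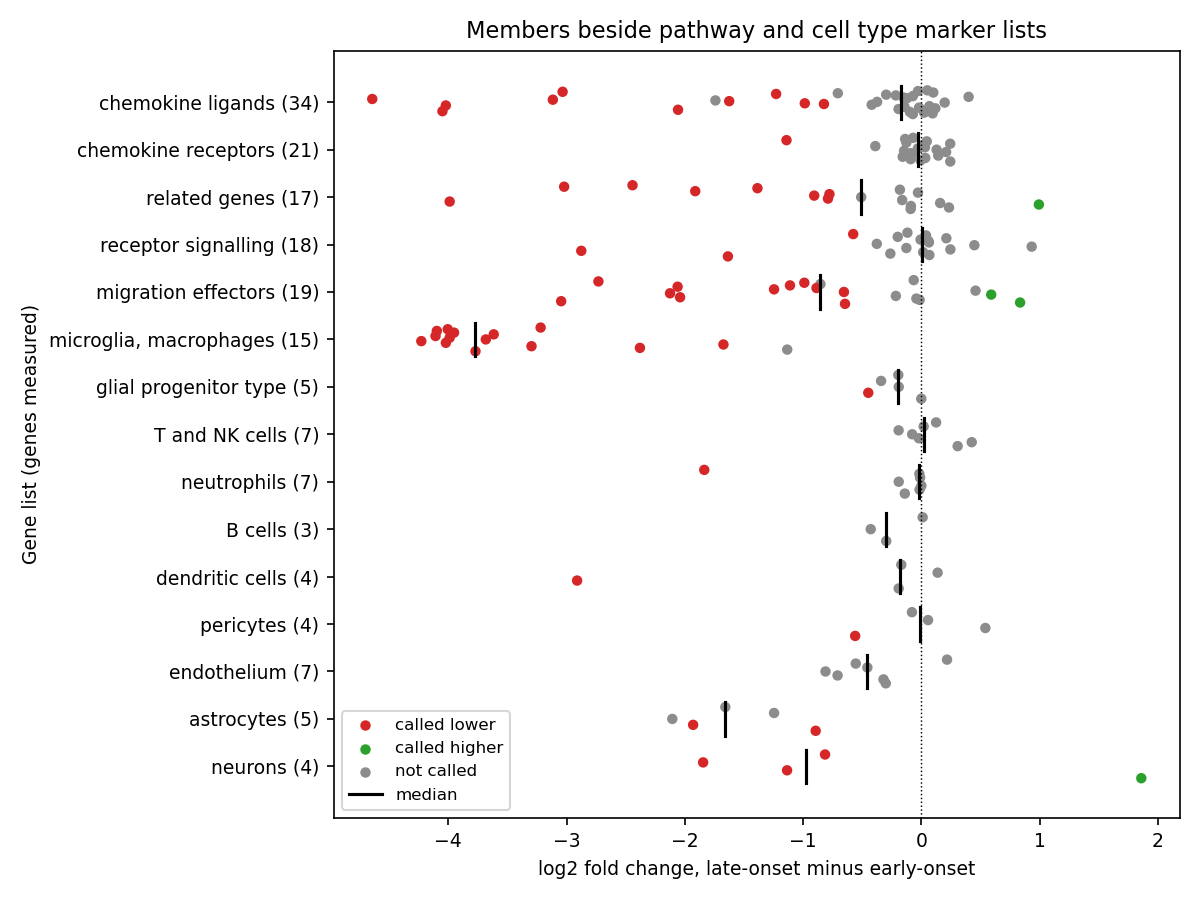
Log2 fold change, late-onset minus early-onset (horizontal axis), of each measured gene (points) in the members, the pathway lists and the cell type marker lists (vertical axis, points spread only for legibility); red marks genes called lower, green higher, grey not called, and black bars medians. The 15 microglia and macrophage markers have a median of -3.77, the 34 chemokine ligand genes -0.17 and the 21 receptor genes -0.03.

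In all 11 called members both pools lay above both tumours, so leaving out an array could not change their direction. It could change only the size of the difference and the call. The number of members called lower was 6 without pool 1, 8 without pool 2, 10 without tumour 1 and 10 without tumour 2, and of the original 11 these held 6, 7, 9 and 10. With 1 array left in a group, that array is assumed to vary as the other group does. Over all genes, too, fewer were called in each of these 4 fits than with all 4 arrays. Ccl4, Ccl12, Cxcl2, Cxcl16 and Ackr3 were called in each of these 4 fits, as was Cxcl10.

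**Figure D5:**
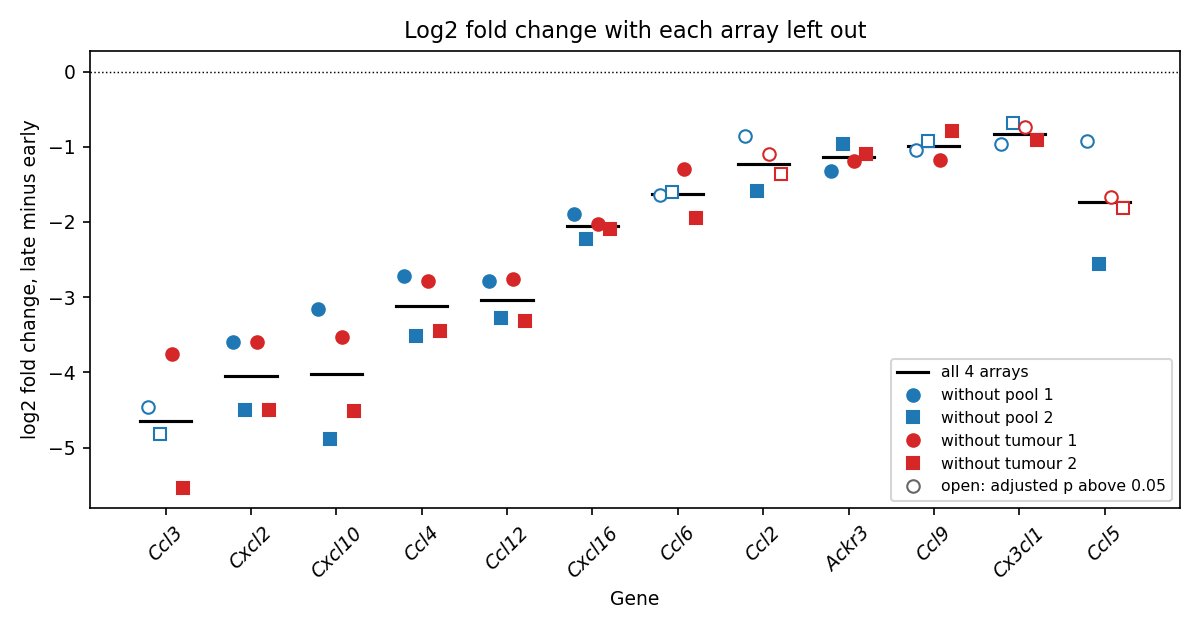
Log2 fold change, late-onset minus early-onset (vertical axis), of the 11 called members and Ccl5 (horizontal axis), with all 4 arrays (black line) and with each array left out (points; open where adjusted p was above 0.05). Ccl5 moves from -0.92 without pool 1 to -2.56 without pool 2, while Cxcl16 stays between -2.22 and -1.89.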

How the data were processed

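Expression was deposited on a log2 scale, 1 value per probe set and array; per the submitters' processing notes, RMA and affy 3.4.2 were used. RMA in its usual form brings the probe intensities of the arrays to a common distribution before summarizing them. This can hide global shifts, and RMA shrinks differences of dim genes. The deposited values themselves were not identically distributed, with array medians from 6.63 to 6.71. The annotation gave 21640 of 34760 probe sets 1 symbol, 1321 several and 11799 none, and only those with 1 were used. Each of 19937 genes was read from its brightest probe set.

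Late-onset minus early-onset differences were fitted in limma 3.58.1 (R 4.3.3; lmFit and eBayes, 2 residual and 3.27 prior degrees of freedom), with Benjamini-Hochberg adjustment over all genes and a threshold of 0.05. The procedure was run on data simulated from its own variance model, with the same spread in both groups. The check required only that the set changes were recovered on average. Alternatives covered scaling, variance model, array weights, filters, probe set rule, thresholds, the replicate number as a block and each array left out. Members, roles and lists were chosen with earlier results of these data known. Every member could be named; list genes were the 4 largest called changes in each direction and defining markers. The labels call samples biological replicates. The p-values rest on the spread between them and, through the prior degrees of freedom, on the variances of all genes. Each gene had the same fitted variance in both groups. Each pool mixed cells of 2 tumours, so pools and single tumours need not spread alike. Whether their spreads differed was not tested. Promoters and gene order came from RefSeq GRCm38.p6, and proteins were not analysed here.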

Additional observations from a re-analysis of the deposited data

How the results depend on the processing

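Of 161 values of the 11 called members under 15 other settings, 146 kept their direction and call, 15 kept the direction and lost the call, and 0 reversed. Only quantile normalization, cyclic loess and median subtraction could have reversed a direction. The other settings left the log2 fold changes of these members as they were, or left out an array from groups that did not overlap. The lost calls fell in 6 members, Ccl3, Ccl6, Ccl9, Ccl2, Cx3cl1 and Cxcl10; Ccl4, Ccl12, Cxcl2, Cxcl16 and Ackr3 lost none where they were tested. The number of members called lower was 7 among genes above the median level, where 4 of the 11 were not tested, and 5 at an adjusted p of 0.01; with each array left out it ran from 6 to 10. The number called higher went from 0 to 1, Ccl25, after quantile normalization, after median subtraction, as the mean of probe sets and at an adjusted p of 0.1. The 25 called genes of the 3 pathway lists became 16 among genes above the median level, 15 at an adjusted p of 0.01, 14 at 2-fold or more, and 14 (without pool 2) to 25 with each array left out, 16 without pool 1. Over all genes, the count of 2931 was 824 at an adjusted p of 0.01, 4539 at 0.1, 1077 at 2-fold or more and 850 (without pool 2) to 2577 with each array left out, 943 without pool 1. The replicate number as a block gave 1833 and, of the 11 members, 9, without Cxcl10 (adjusted p 0.0522) and Ccl2 (0.0792), and 18 pathway genes; the numbers only name samples, and pool 1 and tumour 1 deviated from their group means with a correlation of -0.04 over genes. Of the 44 uncalled members, 28 changed sign under at least 1 other setting, all with a log2 fold change of at most 0.1577 in size, and 0 of these reversed values passed the threshold. After median subtraction the values were Cxcr3 0.0018, Cxcl12 0.0165, Ccr1 0.0323, Cxcr6 0.1527, Ccl26 0.0086, Ccr7 0.0134, Ackr2 0.0225, Ccl28 0.0383, Cxcl3 0.0626, Cxcr5 0.0687, Ccr9 0.0698, Cxcr1 0.0804, Ccl24 0.0872, Xcl1 0.0872, Ackr1 0.0902, Ccr4 0.1297, Ccl11 0.131 and Cxcl13 0.1401. After quantile normalization they were Cxcr6 0.0331, Cxcr1 0.0547, Ccl24 0.0509, Ackr1 0.1037, Cxcr4 -0.034, Ccr4 0.0242, Ccl11 0.1102 and Cxcl13 0.0342, and after cyclic loess Cxcr6 0.0229, Ackr1 0.0011, Cxcr4 -0.0554, Ccr4 0.0066, Ccl11 0.0414 and Cxcl13 0.0146. With each array left out, 18 spanned 0: Ackr1 ran from -0.1655 to 0.0269, Ccl1 from -0.0112 to 0.1118, Ccl11 from -0.2151 to 0.1582, Ccl17 from -0.0937 to 0.2948, Ccr1l1 from -0.0242 to 0.0523, Ccr3 from -0.0006 to 0.0606, Ccr4 from -0.1166 to 0.057, Ccr9 from -0.2411 to 0.0618, Cxcl11 from -0.055 to 0.1907, Cxcl13 from -0.0801 to 0.0413, Cxcl14 from -0.1382 to 0.375, Cxcl17 from -0.042 to 0.0738, Cxcl5 from -0.0555 to 0.1042, Cxcl9 from -0.0464 to 0.2368, Cxcr4 from -0.1276 to 0.1935, Cxcr5 from -0.3649 to 0.1833, Cxcr6 from -0.0593 to 0.0458 and Xcl1 from -0.2949 to 0.1504. Apart from the settings whose construction sets the count, the cause was not tested.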

Other observations

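3 probe sets carried chemokine names together with other genes and were left out of the members. The probe set for the Ccl21 copies, ligands of Ccr7, had log2 values of 6.16 in pool 1, 6.85 in pool 2, 6.05 in tumour 1 and 7.09 in tumour 2, so the groups overlapped. The 2 probe sets for the Ccl27 copies, ligands of Ccr10, read 7.81, 8.38, 7.60 and 7.70, and 4.38, 4.09, 4.51 and 3.57, in the same order. In the brighter of these both tumours lay below both pools, by 0.44 in the mean, and in the dimmer the groups overlapped. How their signal divides among the gene copies cannot be read from these arrays.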
